A study of Magallana angulata with 9 samples.

Results

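In D-larvae of the Portuguese oyster Crassostrea angulata, 150 genes of the 28372 listed were selected as those lowered in cryopreserved larvae relative to both other conditions, while their level in cryoprotectant (CPA) exposed larvae stayed close to that in fresh larvae. RNA was sequenced from 3 pools of larvae, each split over 3 conditions, which gives 9 libraries of whole larvae with 1 library per pool and condition. Each pool came from its own cross of several females and males, and the larvae were collected about a day after fertilization and held on ice before any treatment. The cryopreserved larvae were equilibrated for 3 min at 4 °C in 10% dimethyl sulfoxide (DMSO), 1% polyvinylpyrrolidone (PVP) and 0.2 M sucrose in straws of 30000 larvae, cooled at a programmed rate and kept 2 months in liquid nitrogen. Their straws were thawed for 10 s in a bath at 37 °C, and the larvae spent 1 h in a large volume of filtered seawater before they were sieved and washed. The CPA exposed larvae received the same cryoprotectants for 3 min at 4 °C and were then diluted in seawater without freezing, and the fresh larvae were held in filtered seawater alone. Freezing, storage, thawing, the recovery bath and the washing cannot be told apart in the cryopreserved larvae.

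The D-larva is the first shelled stage of a bivalve, named for the shape of its hinged valves, and it swims and feeds with a ciliated velum while its mantle adds to the shell. In cryopreservation, DMSO enters the cells and limits the growth of ice. PVP and sucrose stay largely outside, and sucrose draws water out before freezing. The level of a transcript reflects how fast it is made and how fast it is lost, and in a pool of whole larvae fewer cells of a type and less RNA per cell cannot be told apart. The genes carry NCBI numbers of the related oyster Crassostrea gigas, to whose genome the reads were aligned. Of these numbers, 0 occur in the RefSeq table of the Crassostrea angulata assembly ASM2561291v2 used here, so no product, function, position or sequence is attached to a member, and the markers of velum, mantle or muscle could not be checked. Only the 2 members with the highest score are given by number, and the others are named by their rank.

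The members were chosen on log2 CPM (counts scaled to a common library total), normalized by the trimmed mean of M values (TMM) with a prior count of 2. A mean of 50 or more counts was reached by 17328 genes, of which 13791 had a mean difference of CPA exposed minus fresh larvae within 0.2 log2. Within each pool, the smaller of the 2 distances of the cryopreserved library below the CPA exposed and below the fresh library was taken. The lowest of these over the 3 pools was the score, and the 150 genes of highest score are the members. The selection thus read every library, so the differences between conditions given below describe the members and are not tested over them. The p-values given for single members come from the fit across all genes. Since the selection used the same differences, these p-values are descriptions and not evidence for the falls. A score above 0 was found for 3274 of the 13791 genes. The scores of the members ran from 0.87 for the last to 3.58 for the first, which are distances of 1.83-fold and 12.0-fold in the pool where they were smallest. A score over 2 was reached by 9 members, over 1.5 by 37 and over 1 by 110. There was no gap at the limit. The last 2 members scored 0.8715 and 0.8708, and the first 2 genes outside scored 0.8702 and 0.8619. The first gene outside averaged 3.02 CPM in cryopreserved, 6.94 CPM in CPA exposed and 6.66 CPM in fresh larvae.

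The estimated counts of a library summed to between 22367780 and 24440543 in cryopreserved larvae, between 33643297 and 45990672 in CPA exposed larvae and between 24482043 and 45051399 in fresh larvae. Where a gene had 0 counts, its level could still be that of 3 counts, which is 0.0582 to 0.151 CPM over the 9 libraries, a limit that covers counting error only. The cryopreserved libraries were the shallowest of each pool, and their part in the results was not tested. Of the 150 members, 147 had at least 5 counts in all 9 libraries, 2 were at or under 3 counts in a library and 1 of these was at 0. The mean count in the cryopreserved libraries was 50 or more for 98 members and below 50 for 52, with a lowest mean of 7.33 counts.

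Gene 105340649, the first in rank, was the member with the deepest mean fall. It had 5.70, 1.87 and 3.34 CPM in the cryopreserved larvae of pools 1, 2 and 3, against 96.5, 29.2 and 44.6 CPM in CPA exposed and 85.3, 28.0 and 40.6 CPM in fresh larvae. Every cryopreserved library was far below every other library, and pool 1 was the highest in all 3 conditions. The mean log2 difference of cryopreserved minus fresh larvae was -3.78 ± 0.17 (SD, n = 3 pools), 13.7-fold lower, so the pools differed more in level than in the size of the fall. In the fit across all genes its log2 fold change against fresh larvae was -3.81 (standard error 0.64, adjusted p = 0.0122 from edgeR) and against CPA exposed larvae -3.96 (standard error 0.64, adjusted p = 0.00806 from edgeR). Over the alternatives, the adjusted p ran from 3.65e-09 to 0.0502 against fresh and from 5.01e-10 to 0.0346 against CPA exposed larvae. The value of 0.0502 came from the fit without the cryopreserved library of pool 3. The gene ranks first on these same differences, so nothing is read from its p-values.

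Gene 109619761, the second in rank, differed most between pools. It had 1.76, 0.656 and 6.80 CPM in the cryopreserved larvae of pools 1, 2 and 3, against 31.7, 4.71 and 70.2 CPM in CPA exposed and 23.8, 5.31 and 56.0 CPM in fresh larvae. The conditions overlapped, since the cryopreserved library of pool 3 lay above the CPA exposed and fresh libraries of pool 2. Within each pool the gene was lower in cryopreserved larvae, as the selection required of every member. The falls were 3.71, 2.90 and 3.03 log2 relative to the fresh library. Before freezing, the highest and the lowest pool differed 12.6-fold. Its adjusted p was 0.181 against fresh and 0.124 against CPA exposed larvae in edgeR without the pool as a factor. With the pool as a block the values were 0.000133 and 7.52e-05, the lowest of the alternatives, whose highest values were 0.446 and 0.334. The selection used these differences within pools, so the p-values are a description.

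**Figure D1:**
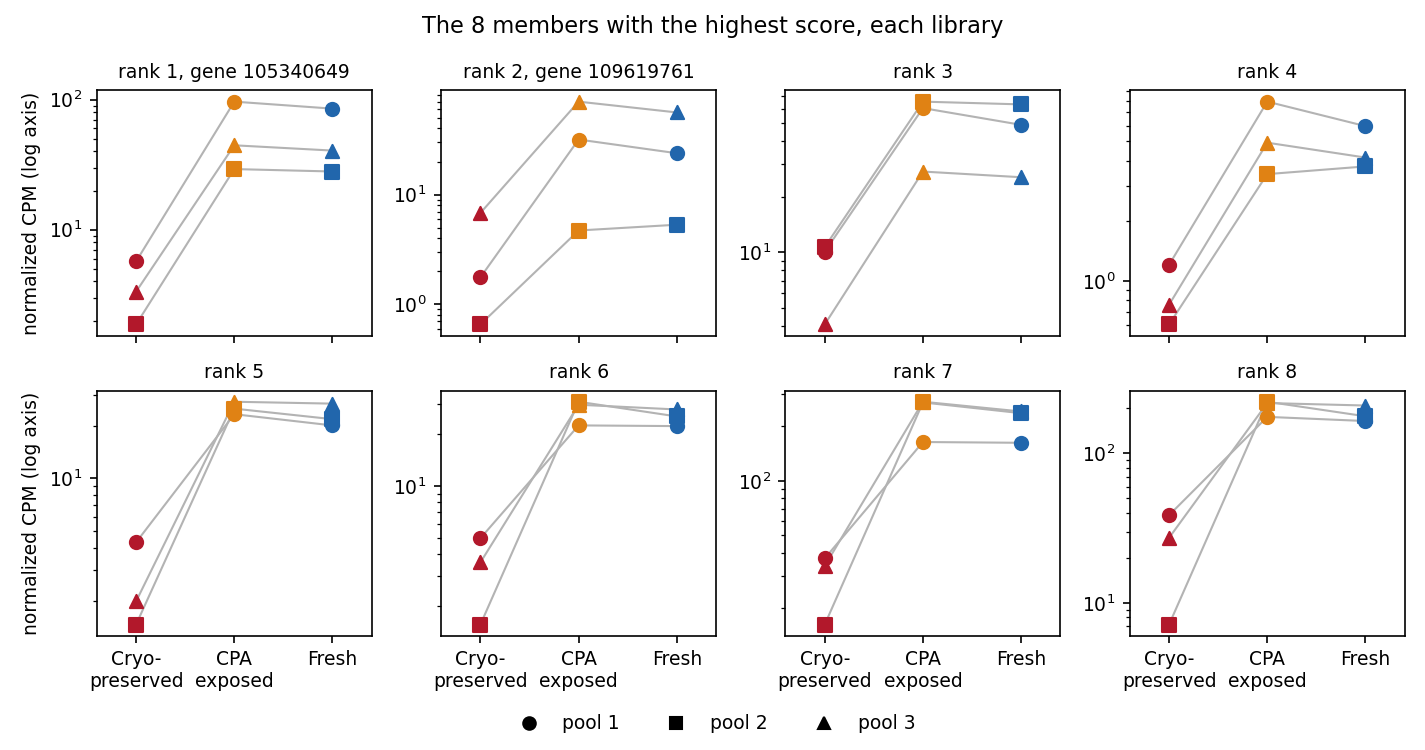
Normalized CPM on a log axis of the 8 members with the highest score, with 1 point per library, conditions from left to right as cryopreserved, CPA exposed and fresh, point shapes for the 3 pools and grey lines joining the libraries of a pool. In every panel each line drops to the cryopreserved library, by 13.7-fold on average over the pools for gene 105340649, while the CPA exposed and fresh points of a pool lie close together.

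The members ranked 3 and 4 fell by nearly the same factor in each pool. The member ranked 3 had 10.1, 10.6 and 4.05 CPM in cryopreserved larvae, against 60.3, 65.4 and 27.3 CPM in CPA exposed and 48.9, 63.2 and 25.4 CPM in fresh larvae. The member ranked 4 had 1.21, 0.606 and 0.760 CPM in cryopreserved larvae, against 7.92, 3.43 and 4.93 CPM in CPA exposed and 5.97, 3.75 and 4.15 CPM in fresh larvae. Both lost a similar part of their level whatever the level of the pool, with mean differences of -2.49 ± 0.19 and -2.37 ± 0.13 log2 (SD, n = 3 pools) relative to fresh larvae.

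The members ranked 5 to 9 showed another pattern, with similar levels in the 3 pools before freezing and a fall that was least in pool 1 and deepest in pool 2. The member ranked 5 had 4.31, 1.46 and 1.99 CPM in the cryopreserved larvae of pools 1, 2 and 3, against 23.2, 24.99 and 27.4 CPM in CPA exposed and 20.04, 21.8 and 26.7 CPM in fresh larvae. The member ranked 7 had 37.4, 16.1 and 33.96 CPM in cryopreserved larvae, against 163.5, 270.2 and 272.5 CPM in CPA exposed and 161.9, 235.7 and 240.8 CPM in fresh larvae. The member ranked 8 had 38.6, 7.17 and 27.2 CPM in cryopreserved larvae, against 175.4, 221.4 and 217.0 CPM in CPA exposed and 164.5, 177.0 and 208.9 CPM in fresh larvae. For each of these members the cryopreserved library of pool 2 was the lowest of the 9. The member ranked 9 fell by 2.07, 4.68 and 3.25 log2 relative to the fresh libraries of pools 1, 2 and 3, the widest contrast between pools among the first 10. The member ranked 6 fell by 2.15, 3.96 and 2.93 log2. All 5 of these members passed the thresholds used for the calls given below, both against fresh and against CPA exposed larvae. The selection used both differences.

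The member ranked 10 was both abundant and uneven over the pools. It had 78.8, 22.9 and 120.1 CPM in cryopreserved larvae, against 334.0, 193.8 and 884.2 CPM in CPA exposed and 305.2, 155.5 and 808.8 CPM in fresh larvae. No cryopreserved library reached any other library, but its edgeR adjusted p without the pool as a factor was 0.127 against fresh and 0.0918 against CPA exposed larvae. With the pool as a block it was called in both comparisons, with adjusted p of 0.000306 and 0.000165, the lowest of the alternatives, whose highest values were 0.379 and 0.262.

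Members further down the rank fell by less in the pool that set their score, though not always on average. The member ranked 50 had 1.71, 1.61 and 2.37 CPM in cryopreserved larvae, against 8.38, 4.71 and 6.57 CPM in CPA exposed and 7.52, 4.57 and 6.23 CPM in fresh larvae. The last member but 1 had 15.9, 16.0 and 15.1 CPM in cryopreserved larvae, against 29.5, 32.8 and 34.7 CPM in CPA exposed and 29.2, 33.3 and 32.8 CPM in fresh larvae. The last member had 2.27, 1.82 and 1.90 CPM in cryopreserved larvae, against 4.21, 5.10 and 4.21 CPM in CPA exposed and 4.30, 4.96 and 4.13 CPM in fresh larvae. The last 2 members were more even over the pools than the member ranked 50, and in all 3 members no cryopreserved library reached any other library. The smallest mean fall belonged to the member ranked 138, with 27.4, 25.2 and 22.3 CPM in cryopreserved larvae, against 55.9, 54.1 and 48.5 CPM in CPA exposed and 57.2, 47.3 and 47.1 CPM in fresh larvae. It was 2.02-fold lower than in fresh larvae, and its pools differed little (-1.02 ± 0.09 log2, SD, n = 3 pools).

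The least abundant member, ranked 36, shows what the depth allows. It had 7, 0 and 15 counts in the cryopreserved libraries of pools 1, 2 and 3, against 43, 72 and 139 counts in the CPA exposed and 38, 47 and 99 counts in the fresh libraries. All cryopreserved libraries were below all others, but the fall in pool 2 ends at a count of 0 and its size depends on the prior count. The member ranked 19 was at 3 counts, or 0.127 CPM, in the cryopreserved library of pool 3, against 1.46 CPM in both the CPA exposed and the fresh library of that pool.

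Over all 150 members the median of the mean log2 difference was -1.68 for cryopreserved minus fresh larvae, 3.20-fold lower, beside a median of -0.05 over the 17328 genes. It was -1.73 for cryopreserved minus CPA exposed larvae, 3.32-fold lower, beside -0.03 over these genes. The mean fall from fresh larvae exceeded 3 log2 in 10 members, lay between 1.5 and 3 in 83 and between 1 and 1.5 in 57. The first 50 in rank had a median of -2.49, the next 50 of -1.60 and the last 50 of -1.30. The levels of the members before freezing were distributed over classes of abundance broadly as those of the 17328 genes, with a somewhat lower median. Their median was 3.79 CPM in cryopreserved, 13.8 CPM in CPA exposed and 13.2 CPM in fresh larvae, beside 16.3, 17.4 and 17.2 CPM over the 17328 genes. In fresh larvae, 32 members were below 5 CPM, 57 between 5 and 20, 42 between 20 and 100 and 19 above, which are 21.3%, 38.0%, 28.0% and 12.7% of the members, beside 19.5%, 34.2%, 35.1% and 11.1% of all these genes. The median difference of cryopreserved minus fresh larvae was -1.54, -1.65, -1.55 and -2.10 log2 in these classes, so the fall was of similar size at low and middle levels and deeper in the most abundant class. The 19 members of that class include 6 with nearly parallel profiles, described below, whose levels may share reads. Their mean falls were between -1.93 and -2.10 log2, so the median of the class may count 1 signal several times. Across members, the Spearman rho of the fresh level with this difference was -0.19, which describes genes that share libraries.

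**Figure D2:**
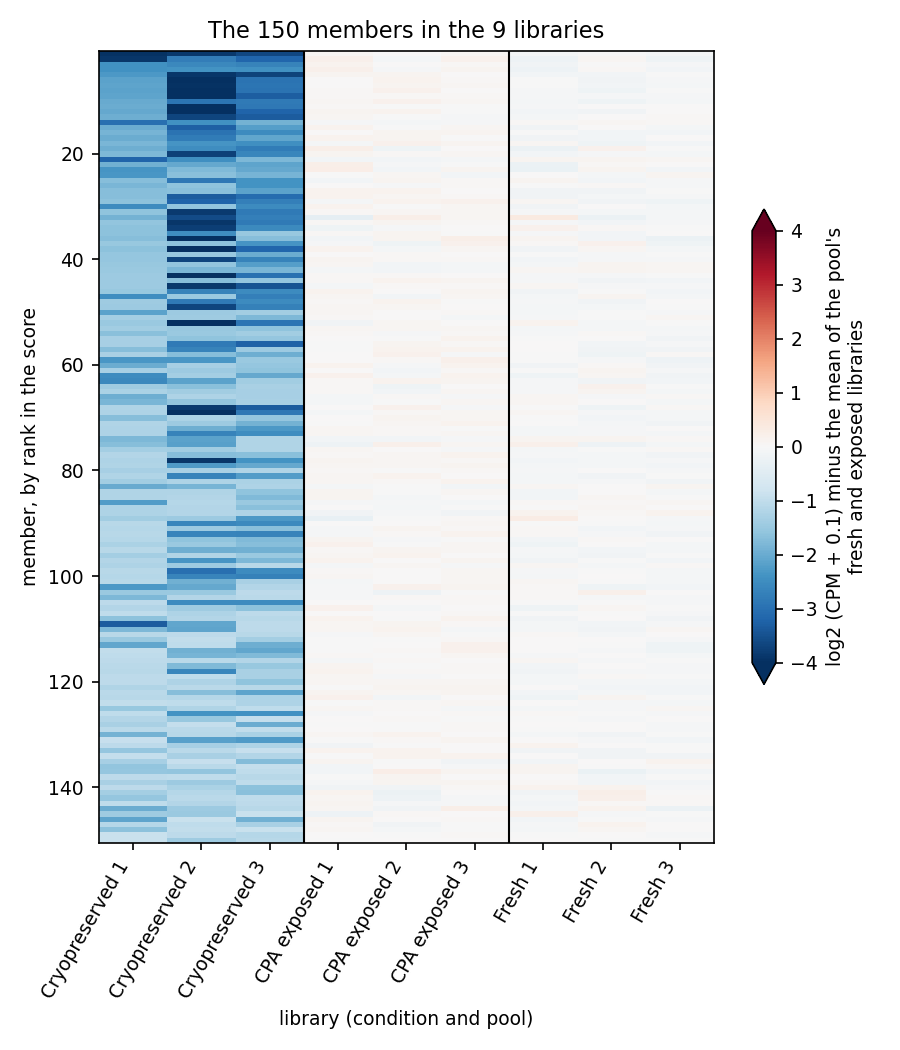
Heat map of the 150 members, 1 row each from rank 1 at the top, in the 9 libraries grouped as cryopreserved, CPA exposed and fresh, with colour for log2 (CPM + 0.1) minus the mean of the CPA exposed and fresh libraries of the same pool and colours saturated at -4 and 4. The cryopreserved columns are blue throughout, with most of the darkest cells in pool 2, whereas the other 6 columns are nearly white.

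The size of the fall differed between pools. The median difference of cryopreserved minus fresh larvae was -1.47 in pool 1, -1.71 in pool 2 and -1.77 in pool 3, and the median member kept 35.3%, 29.4% and 29.0% of its fresh level. The SD over members was 0.55 in pool 1, 1.04 in pool 2 and 0.72 in pool 3, and the values in pool 2 reached from -0.88 to -4.94. Each pool has 1 cryopreserved library, so a trait of the library and a trait of the larvae cannot be told apart. The cryopreserved library of pool 2 had the lowest TMM factor of all libraries, 0.868, and in the paper the lowest mapping rate. Their part in the falls of pool 2 was not tested. Pool 1 set the score of 85 members, pool 2 that of 29 and pool 3 that of 36. The deepest fall was in pool 2 for 70 members, which is 46.7%, beside 34.2% of the 17328 genes. It was in pool 1 for 38, 25.3%, beside 38.6% of these genes, for which pool 1 was the most common, and in pool 3 for 42, 28.0%, beside 27.2%. The range of the fall over the 3 pools had a median of 0.81 log2, beside 0.54 over all these genes, and exceeded 1 log2 in 56 members. Across members, the falls correlated with r = 0.78 between pools 2 and 3, but with r = 0.28 between pools 1 and 2 and r = 0.26 between pools 1 and 3. Over the 17328 genes the values were 0.75, 0.58 and 0.64. The selection on the lowest of the pools narrows the range of the members in the pool that sets the score, and these correlations, across genes that share libraries, are given as a description.

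In each condition the members' median spread between pools lay above that of all genes, a description that was not tested. The median SD over the 3 pools of log2 CPM was 0.51 in cryopreserved, 0.37 in CPA exposed and 0.32 in fresh larvae, beside 0.31, 0.29 and 0.26 over the 17328 genes. The spread was thus widest in cryopreserved larvae both in the members and in the genes as a whole. The members and the 17328 genes were not matched on level, with medians of 3.79 and 16.3 CPM in cryopreserved larvae. The cryopreserved libraries were also the shallowest. The part of counting error in these spreads was not tested. The pool that was highest before freezing was also the highest after thawing for 81 members, 54.0%, beside 55.0% of all these genes. In 143 of the 150 members, 95.3%, all 3 cryopreserved libraries lay below all 6 others, beside 11.8% of the 17328 genes, a count that the selection largely fixes. The 7 members whose libraries overlapped, singled out after their values were seen, rank 2, 37, 89, 98, 114, 140 and 145. Before freezing they differed between the highest and the lowest pool by a median of 3.60-fold, against 1.51-fold in the other 143. The member ranked 114 had 29.8, 2.93 and 5.91 CPM in cryopreserved larvae, against 58.9, 11.8 and 28.4 CPM in CPA exposed and 59.7, 11.0 and 22.4 CPM in fresh larvae, so that its cryopreserved library of pool 1 exceeded every library but the CPA exposed and the fresh one of that pool.

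The members together held 0.550%, 0.223% and 0.273% of the normalized counts in the cryopreserved larvae of pools 1, 2 and 3, against 1.37%, 1.16% and 1.42% in CPA exposed and 1.35%, 1.102% and 1.30% in fresh larvae. The mean was 0.349% ± 0.176 in cryopreserved, 1.32% ± 0.136 in CPA exposed and 1.25% ± 0.131 in fresh larvae (SD, n = 3 each). All cryopreserved libraries were below all others, and pool 1 kept the largest part, with 40.8% of its fresh level, against 20.2% in pool 2 and 21.0% in pool 3.

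This sum rested on few members. The 6 most abundant, which were set apart after their values were seen and rank 90, 126, 92, 73, 105 and 100, held 53.1% of the members' CPM in fresh larvae. The member ranked 90, the most abundant of all, had 884.0, 192.6 and 276.2 CPM in cryopreserved larvae of pools 1, 2 and 3, against 1933, 1188 and 1711 CPM in CPA exposed and 1892, 1155 and 1541 CPM in fresh larvae. The member ranked 126 had 882.2, 211.5 and 286.8 CPM in cryopreserved larvae, against 1707, 1130 and 1585 CPM in CPA exposed and 1833, 1093 and 1473 CPM in fresh larvae. The member ranked 100 had 430.4, 102.0 and 140.6 CPM in cryopreserved larvae, against 1014, 630.3 and 963.4 CPM in CPA exposed and 891.3, 630.3 and 857.8 CPM in fresh larvae. The profiles of the 6 ran nearly parallel. Each kept between 44.5% and 49.0% of its fresh level in pool 1, but between 16.2% and 19.4% in pool 2 and between 16.4% and 19.5% in pool 3. The other 144 members, summed, kept 31.7%, 22.7% and 24.1% in these pools, so the contrast of pool 1 with the others was smaller without the 6. The estimates of the 6 were not whole numbers in at least 8 of the 9 libraries, and in all 9 for 4 of them. An estimate that is not whole holds reads that Salmon divided between transcripts of more than 1 gene, so the levels of these members may share reads with near copies and are uncertain as levels of single genes.

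**Figure D3:**
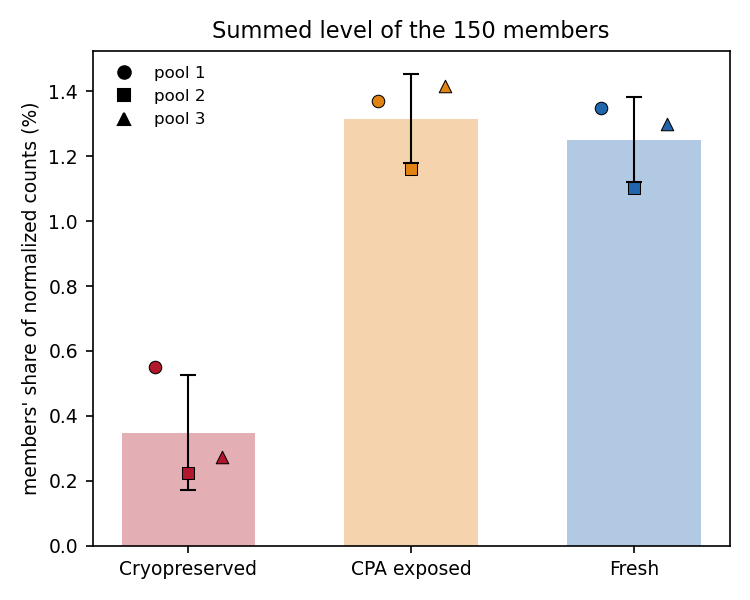
Summed level of the 150 members as percent of the normalized counts of a library, with bars for the mean of cryopreserved, CPA exposed and fresh larvae, error bars for the SD over 3 pools and a point for each library with its shape for the pool. The cryopreserved libraries lie between 0.223% and 0.550%, below all CPA exposed and fresh libraries, and the highest of them is pool 1.

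Over all members, estimates that were not whole were less common than in other genes. They occurred in at least 1 library for 114 members, 76.0%, beside 87.6% of the 17328 genes, and in all 9 libraries for 19 members, 12.7%, beside 24.1%. The median difference of cryopreserved minus fresh larvae was -1.76 log2 in these 114 members and -1.59 log2 in the 36 members with whole estimates throughout. Every member was selected for a fall in each pool, so these medians are a description.

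Exposure to cryoprotectants without freezing moved the members little, as the selection required, but not evenly. The median difference of CPA exposed minus fresh larvae was 0.09 log2, beside -0.01 over the 13791 genes within the limit of 0.2. The mean was higher in CPA exposed larvae for 118 members, 78.7%, beside 46.0% of these genes, and 69 members, 46.0%, lay between 0.1 and 0.2 above fresh larvae, beside 16.1%. In all 3 pools, 46 members, 30.7%, were higher in CPA exposed than in fresh larvae and 8, 5.33%, were lower, beside 14.2% and 16.3% of these genes. A difference over 0.5 log2 in any pool occurred in 4 members, 2.67%, beside 3.79% of the genes within the limit. The score treats the CPA exposed and the fresh library of a pool alike, and the cause of the excess in CPA exposed larvae was not tested. Without the limit of 0.2, 476 genes reached the score of the last member. CPA exposed larvae were higher than fresh larvae by over 0.2 log2 in 319 of them and lower by over 0.2 in 7, which are 16.6% of the 1924 genes over 0.2 higher and 0.434% of the 1613 genes over 0.2 lower. The members are 1.09% of the 13791 genes in between. The limit on the members is therefore a line through a continuous set of genes and not a boundary between separate sets. The highest score without the limit was 4.65, and the 150th was 1.93, above the scores of most members.

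**Figure D4:**
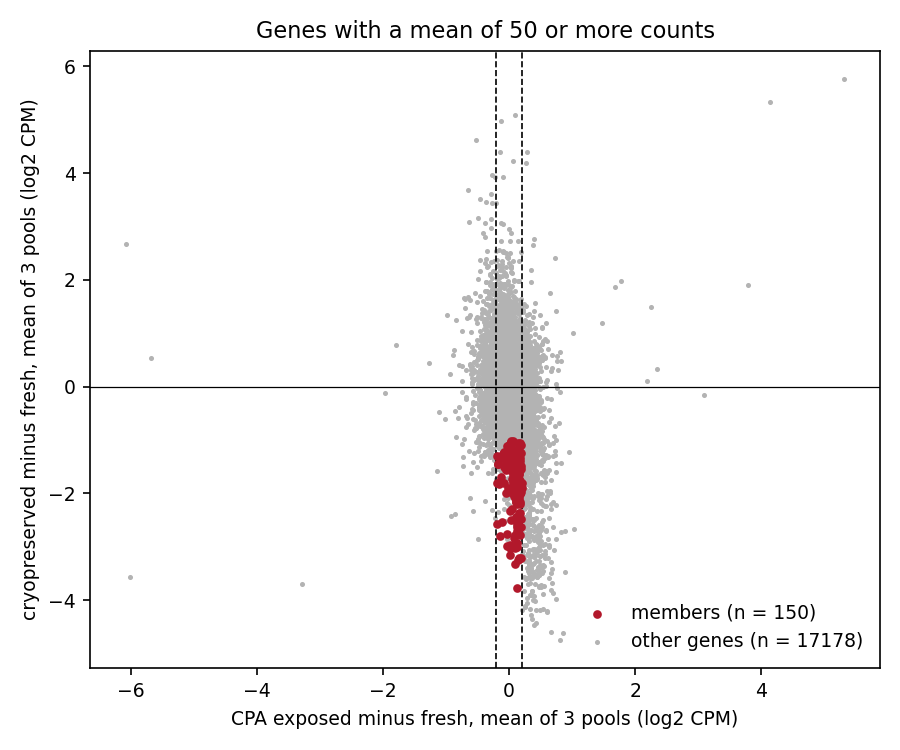
Mean log2 difference of cryopreserved minus fresh larvae (vertical axis) against that of CPA exposed minus fresh larvae (horizontal axis) for the 17328 genes whose mean count was 50 or more, with the members in red, all other genes in grey and dashed lines at -0.2 and 0.2. The members fill the lower part between the dashed lines, more to the right of 0 than to the left, and the other deeply lowered genes lie mostly to the right of the line at 0.2.

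In the fit across all 23052 genes that passed the filter on low counts, which all 150 members passed, 59 members were called lower in cryopreserved than in fresh larvae, with an adjusted p under 0.05 and a log2 fold change below -1.5 (quasi-likelihood test of edgeR, Benjamini-Hochberg adjusted). This is 39.3% of the members, beside 1.37% of all genes tested, and since the members were selected on the same difference nothing is read from it. With the pool as a block the calls were 92 members and 2.33% of all genes. Against CPA exposed larvae, 76 members were called lower, 50.7%, beside 1.93% of all genes, and with the block 102 members, beside 3.01%. The calls against fresh larvae dropped to 36, 35 and 39 members without the fresh library of pool 1, 2 or 3, and to 35 without the cryopreserved library of pool 3. Those against CPA exposed larvae dropped to 50, 52 and 56 without the CPA exposed library of pool 1, 2 or 3. Without the cryopreserved library of pool 3 they were 55. Over all genes, the calls against fresh larvae dropped in the same fits from 315 to 179, 181, 200 and 195. The calls against CPA exposed larvae dropped over all genes from 446 to 301, 342, 341 and 378. The drop was thus not particular to the members. Both comparisons use the same cryopreserved libraries. All 59 members called against fresh larvae were also called against CPA exposed larvae, 17 were called only there and 74 in neither.

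The members without a call were mostly those of moderate fall. Of the 91 not called against fresh larvae, 62 had a log2 fold change within 1.5, and the other 29 were past 1.5 with a median SD over fresh pools of 0.63, against 0.29 in the called members. By rank, 35 of the first 50 members, 20 of the next 50 and 4 of the last 50 were called against fresh larvae. Of the 6 most abundant members, 1 was called without the block, ranked 73, with a log2 fold change of -1.86 and an adjusted p of 0.0392 from edgeR (0.000279 to 0.119 over the alternatives, the highest without the cryopreserved library of pool 3). With the block all 6 were called, with adjusted p from 0.00248 to 0.00414. Between CPA exposed and fresh larvae, a difference the selection limited, 0 members and 0% of all genes were called in edgeR. At an unadjusted p under 0.05, edgeR without the block gave 36 genes higher and 29 lower in CPA exposed larvae, with 0 members among them. With the block it gave 320 higher and 197 lower, again with 0 members among them, and 0 genes were called. DESeq2 called 2 genes of all tested and 0 members.

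The fall was then read in libraries that had no part in the choice. The same rule was applied to 2 pools and its 150 genes were read in the pool left out, with the smaller distance of the cryopreserved library from the other conditions and with TMM factors from all 9 libraries. There is 1 library per condition in the pool read, so no test was made. Chosen on pools 2 and 3, 138 of the 150 genes, 92.0%, were lower in the cryopreserved larvae of pool 1 than in both other conditions, beside 47.9% of 17368 genes. Chosen on pools 1 and 3, 148 genes, 98.7%, were lower in pool 2, beside 44.2% of 17539 genes. Chosen on pools 1 and 2, 141 genes, 94.0%, were lower in pool 3, beside 45.1% of 16943 genes. Nearly all genes chosen on a pair of pools were thus lower in the pool not used, and least often in pool 1. The median distance in the pool read was -1.06, -1.57 and -1.39 log2 in pools 1, 2 and 3, beside 0.03, 0.07 and 0.05 over all genes with the same mean count. The same genes had medians of -2.28, -1.54 and -1.58 log2 in the pools that chose them, where the choice itself favours deep falls. The distance read was shallower than this in pools 1 and 3 and close to it in pool 2. These contrasts are not read as differences between pools. A distance of over 1 log2 was found for 79, 106 and 95 genes in pools 1, 2 and 3, which are 52.7%, 70.7% and 63.3%, beside 7.35%, 6.68% and 5.06%. Of the genes chosen without pool 1, 2 or 3, 79, 98 and 80 are among the 150 members. In the pool read, CPA exposed larvae were higher than fresh larvae for 72.0%, 67.3% and 72.0% of the chosen genes, beside 50.1%, 50.4% and 49.5% of all, so the small excess in CPA exposed larvae was present there as well. The CPA exposed and fresh libraries of a pool are single libraries, and this share has no replicate check.

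**Figure D5:**
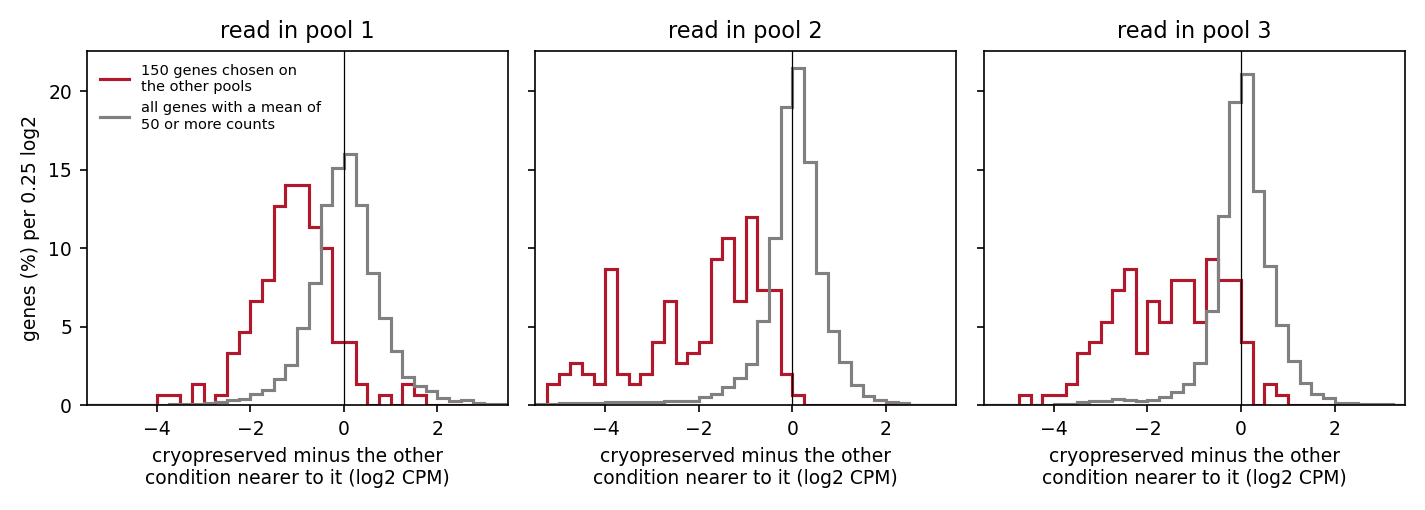
Histograms, in percent of genes per 0.25 log2, of cryopreserved minus whichever other condition was nearer to it in pools 1, 2 and 3, for 150 genes chosen on the other pools (red) and all genes whose mean count was 50 or more (grey). The red lines lie left of 0 for 138, 148 and 141 of the 150 genes, with the longest tail in pool 2.

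With the sign of the rule turned, 268 genes raised in cryopreserved larvae reached the score of the last member, the 150th of them scored 1.09 and the highest scored 2.87. When libraries were scaled by size alone, 63 raised genes reached the score of the 150th lowered gene under that scaling, so the balance of raised and lowered genes depends on the scaling. That scaling moved the median of all log2 fold changes for cryopreserved against fresh larvae to -0.20, against -0.02 with TMM, and the median difference over the members to -1.86, since a scaling shifts all genes of a library alike.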

How the data were processed

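Per the labels, polyA RNA of 9 D-larvae libraries was sequenced. The authors cleaned the reads, mapped them on the genome of Crassostrea gigas and deposited 1 table of Salmon 1.1 estimated counts per gene, neither normalized nor filtered, of which 38.2% are not whole numbers (tolerance 5e-04). Every column was matched to a sample by the column position in its label, which left 0 columns unused.

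The estimated counts were rounded. The 23052 genes that had 5 or more counts in 3 or more libraries were normalized by TMM and tested in edgeR 4.0.16 (R 4.3.3) with the quasi-likelihood test. All 9 libraries entered, condition was the single factor, p-values were adjusted after Benjamini and Hochberg, the threshold was an adjusted p of 0.05 with 1.5 log2, and fold changes used a prior count of 0.125. The standard errors are the absolute log2 fold change over the square root of F. The scripts were tested on simulated data. DESeq2 1.42.0 and limma-voom (limma 3.58.1) served as alternatives. Differences outside the fit are of log2 CPM with a prior count of 2, and CPM values are TMM normalized.

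The labels' design text states that each pool went through the 3 conditions, and deviations of same-numbered libraries from their condition means correlated with r between 0.513 and 0.863 in all 9 pairs. The numbers therefore pair the libraries. Replicates of a condition differed by more than sampling noise (chi-square over its degrees of freedom, 72.6 to 189). P-values of the fit with condition alone set a difference against the spread between these 3 pools. Those with the block set it against the spread left once the levels of the pools are fitted. Both use an estimate of spread that draws on all genes and all 9 libraries.

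The members and the results chosen for description were picked with earlier results of these data known. Named were the 2 members of highest score by number and, by rank, those ranked 3 to 10, 50 and 100, the last 2 members, the first 2 genes outside, the most and least abundant and those with the largest and smallest mean fall. Counts from sequencing are not independent molecules.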

Additional observations from a re-analysis of the deposited data

How the results depend on the processing

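Of 388 values recomputed under an alternative, 334 kept their direction and their side of the threshold or stayed within the tolerance, and 0 reversed. The tolerance was a set factor for counts and the SD of the main value for medians, shares and spreads. Counts, shares and spreads have no sign to reverse, and the selection largely fixes the direction of the members' falls. The absence of reversals is therefore not read as support. The libraries of a pool are paired, and with the replicate block the genes called lower were 536 against fresh and 694 against CPA exposed larvae, in place of 315 and 446, and the members called against fresh larvae were 92 in place of 59. The block gave calls to gene 109619761, to the member ranked 10 and to all 6 most abundant members, of which 1 was called without it in edgeR. DESeq2 without the block gave the member ranked 10 adjusted p of 0.00923 against fresh and 0.00393 against CPA exposed larvae. For gene 109619761 its adjusted p was 0.0286 against CPA exposed larvae. Of 18 settings, an adjusted p under 0.05 was reached in 2 per comparison for the member ranked 10. For gene 109619761 it was reached in 1 against fresh and 2 against CPA exposed larvae. A threshold of 1 log2 gave 99 members against fresh larvae, beside 454 of all genes in place of 315. DESeq2 called 2 genes between CPA exposed and fresh larvae in place of 0.

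With 1 library left out, the counts lower than in fresh larvae were 179 to 333 genes and 35 to 57 members. The counts lower than in CPA exposed larvae were 301 to 433 genes and 50 to 70 members. Against fresh larvae, the genes fell to 179, 181 and 200 without the fresh library of pool 1, 2 or 3. They fell to 195 without the cryopreserved library of pool 3. The rule then shared 78 to 116 genes with the members, and the median difference of CPA exposed minus fresh larvae was 0.0573 to 0.0901. The rule shared 69 genes with the members under a limit of 0.1 on the exposed difference, 45 under 0.4, 12 with no limit, and 79, 98 and 80 on the pools other than 1, 2 and 3. Which genes are members thus depends on the limit and the libraries. With library size only, the median differences over the members were -1.86 for cryopreserved and 0.0333 for CPA exposed minus fresh larvae, and 63 raised genes reached the score of the 150th lowered gene in place of 268. The causes were not tested. Depth limits the falls of members near 0 counts in cryopreserved libraries, which are the shallowest.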
